A study of Nothobranchius furzeri with 20 samples.

Results

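The 27-week muscle libraries of this series fell into 2 sets of 5 with the same labels. Libraries 1 to 5, with sample codes from JM132 to JM137, are called the first block here, and libraries 6 to 10, with sample codes from JM139 to JM143, the second block. Together they are the 10 libraries of the 27-week group, of 20 in the whole series. The blocks were chosen from the expression values themselves, by the gap between libraries 1 to 5 and libraries 6 to 10 on the first principal component of all 20 libraries, and the sample codes of the blocks do not interleave. The difference between the blocks is therefore described without a test, and no p-value is given for it.

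Each library came from muscle of a male turquoise killifish (Nothobranchius furzeri) of the strain MZM-04/10p. The 27-week fish of both blocks carried the label swim-tunnel, as did 5 fish aged 9 weeks; 5 other fish aged 9 weeks carried the label none. In a swim tunnel, fish are made to swim against flowing water. Age, sex, strain, tissue and perturbation were labelled alike in both blocks, and a difference in treatment between them is not given in the sources used here. No library of 27 weeks carried the label none, so the amount of exercise behind either block cannot be compared with a group of its own age. The labels gave no animal identity, and p-values below measure only the spread between these libraries.

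The turquoise killifish lives in seasonal ponds and is used as a short-lived vertebrate model of ageing. Vertebrate muscle loses mass and regenerative capacity with age. Muscle makes large amounts of few transcripts, those of the contractile apparatus and of energy supply, so that the rest of its transcriptome is read from a small share of the reads. In bulk tissue, fewer cells of a type and less RNA per cell cannot be told apart. The deposited tables name genes by identifiers of their own, 0 of 26739 of which matched the 38438 genes of the reference table, so the muscle label could not be checked against marker genes and only 4 identifiers are given, with no gene name or role.

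Library totals ran from 25549097 to 34331958 gene counts in the first block and from 28431822 to 33367760 in the second. Their means differed by -313206 counts (two-sided exact permutation test, n = 5 and 5, p = 0.897, the smallest p this design allows being 0.00794), and the sign of this difference changed without library 3, 5 or 8. Between 19906 and 20735 genes had at least 1 count in a library of the first block and between 19717 and 20188 in the second. The share of counts held by the 50 most abundant genes in each library was between 57.3% and 61.8% in the first block and between 55.7% and 63.2% in the second, so that depth, detection and the weight of the leading transcripts overlapped between the blocks.

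The values that parted the blocks were those on the first principal component of log2(CPM + 0.5), where CPM is a gene's count over its library's own total, on the usual CPM scale. This component held 42.8% of the variance. The scores of libraries 1 to 5 were 60.9, 72.6, 75.3, 69.1 and 74.1, and those of libraries 6 to 10 were -13.5, 0.56, -5.23, -2.01 and 7.79. The 9-week libraries lay between -44.2 and -14.4 with swimming and between -46.1 and -33.6 without. The gap between libraries 1 and 10, the members just inside each block, was 53.1 units, or 0.598 of the whole 27-week range. With TMM factors, which set library sizes so that most genes are level, the gap was 0.545 of the range. The next component held 14.6% of the variance and had libraries 6 to 10 at its low end, between -51.6 and -21.2, with the first block between 5.32 and 19.6 among the 9-week libraries.

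**Figure D1:**
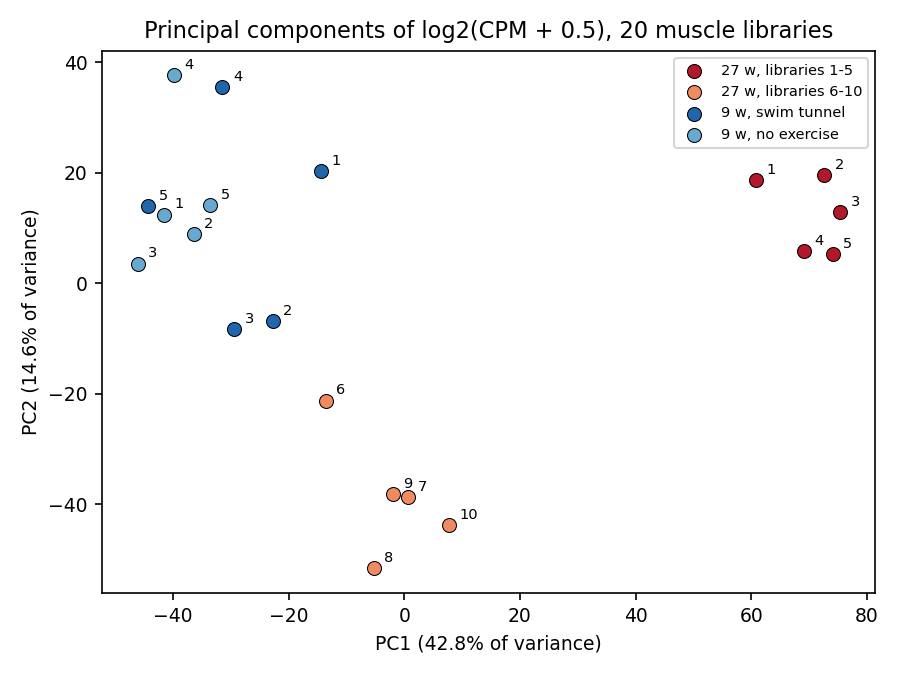
Scores of the 20 libraries on the first 2 principal components of log2(CPM + 0.5) over all tested genes; numbers are library numbers within a group. Libraries 1 to 5 of the 27-week fish lie at 60.9 or above on the first component and libraries 6 to 10 at 7.79 or below, where library 6 comes next to the 9-week libraries.

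The second block was nearer to the 9-week libraries than the first. The component that parted the blocks was taken over all 20 libraries, young ones included. Distances and gene counts against young fish are therefore not independent of the choice of blocks, and are given as a description. The distance of a library was taken as the root mean square, over all tested genes, of its difference in log2(CPM + 0.5) from the mean of the 9-week swim-tunnel libraries. It was 0.807, 0.889, 0.888, 0.832 and 0.863 in libraries 1 to 5 and 0.490, 0.613, 0.595, 0.563 and 0.607 in libraries 6 to 10. The 9-week swim-tunnel libraries themselves lay between 0.304 and 0.508 from their own mean, a distance that counts each of them in the mean, and the unexercised ones between 0.381 and 0.488. Every library of the first block was thus farther from the young swim-tunnel fish than every library of the second. Library 6 lay within the span of the young libraries only through 9-week swim-tunnel library 1, at 0.508. The mean distance of the first block was 1.49 times that of the second.

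Measured from the unexercised 9-week fish, the distances ran from 0.869 to 0.962 in the first block and from 0.497 to 0.663 in the second, again with no overlap. The mean distance to the exercised young fish was 0.856 in the first block and 0.574 in the second, and to the unexercised ones 0.923 in the first block and 0.603 in the second. The number of genes at least 2-fold away from the mean of the young swim-tunnel fish was between 2962 and 3718 in the libraries of the first block and between 774 and 1491 in those of the second. Library 1, in the first block, and library 6, in the second, were the nearest to the young fish by each of these measures.

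Distances between pairs of libraries also set the first block farther from the young fish than the second. Within the first block, 10 pairs differed by a median of 0.527 (0.423 to 0.597), and within the second by 0.468 (0.408 to 0.532). Across the blocks, 25 pairs differed by a median of 0.829 (0.739 to 0.912). Libraries of the second block differed from the exercised young ones by a median of 0.677 (0.574 to 0.846) and from the unexercised ones by 0.666 (0.529 to 0.830), so the typical distance between the blocks was larger than that between the second block and either young group. Libraries of the first block differed from the exercised and the unexercised young ones by medians of 0.949 and 0.967. For the second block the order of the young groups by median pair distance was thus the reverse of that by distance to their means. The nearest neighbour of every 27-week library belonged to its own block. Since the blocks were formed from these same values, smaller distances within than across them partly restate that choice.

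**Figure D2:**
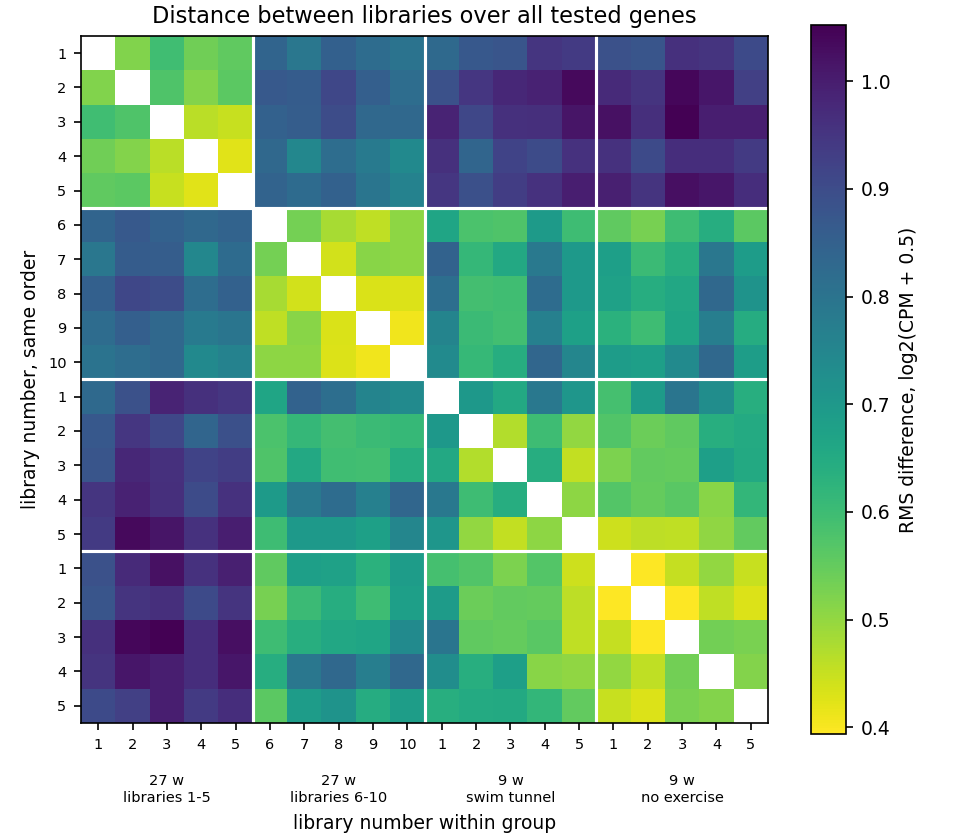
Root mean square difference in log2(CPM + 0.5) between each pair of libraries, with white lines between the first block, the second block and both 9-week groups; darker cells are larger distances. The darkest bands set libraries 1 to 5 against the 9-week libraries, with medians of 0.949 and 0.967, and the second block is lighter against the same libraries, with medians of 0.677 and 0.666.

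The same order held when each block was set gene by gene against the 9-week groups, 5 libraries against 5. A gene was counted as parted when the CPM values of both sets did not overlap and their means of log2(CPM + 0.5) differed by at least 1, that is 2-fold. The first block was parted from the exercised young fish in 2508 genes (15.1% of 16653 tested) and the second block in 550 (3.3%). From the unexercised young fish it was parted in 3308 genes (19.9%) and the second block in 838 (5.03%). The exercised and unexercised young groups were parted in 87 genes (0.522%). With TMM factors the counts against the exercised young fish were 2451 for the first block (14.7%) and 484 for the second (2.91%). These comparisons share the young libraries, so they are given side by side only.

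Between the blocks themselves 2041 genes were parted (12.3% of 16653), of which 1778 were higher (10.7%) and 263 lower (1.58%) in the first block than in the second. This balance depended on the scaling. The median gene was higher in the first block by 0.32 on the log2 scale when each library was scaled by its own total, and by -0.01 with TMM factors, which ran from 1.11 to 1.24 in the first block and from 0.776 to 0.983 in the second. With TMM factors, that is relative to this shift, 668 genes were higher (4.01%) and 710 lower (4.26%). DESeq2 size factors gave 681 and 695. Under all 4 scalings tried, own totals, TMM, size factors and own totals without the 50 most abundant genes, 666 genes were higher and 261 lower in the first block, and 0 genes parted in the opposite direction under another scaling.

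The fold threshold cut through a continuous range. The nearest higher gene inside it differed by 1.0002 and the nearest outside by 0.999898 log2 units; on the lower side the values were -1.005 inside and -0.997 outside. Without a fold threshold, 4779 of 16653 tested genes had no overlap with higher values in the first block and 817 with lower values. These counts are on own totals, where the median gene was higher in the first block by 0.32. They were not computed with TMM factors. At least 4-fold differences were met by 149 of the higher and 44 of the lower genes. For 564 of the 1778 higher and 62 of the 263 lower genes, even the nearest libraries of both blocks were at least 2-fold apart.

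**Figure D3:**
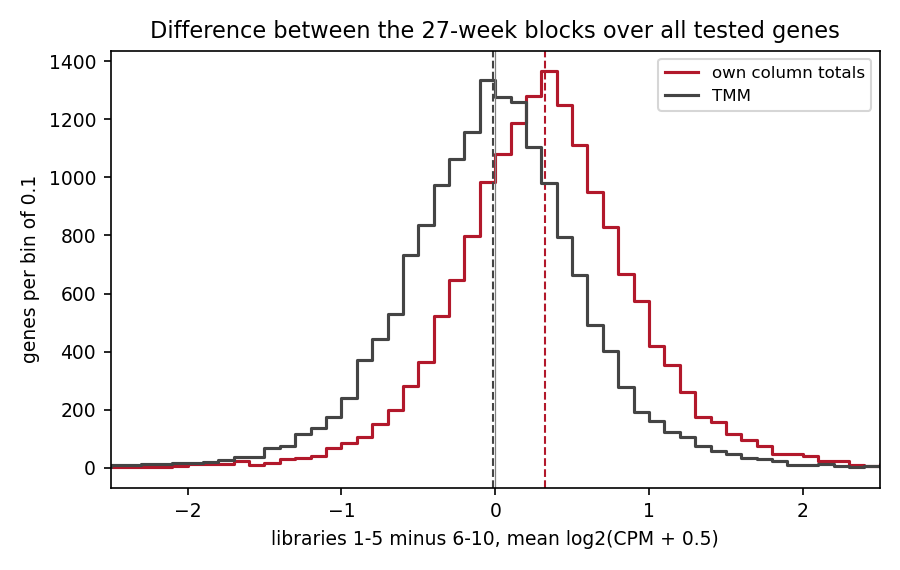
Number of tested genes by the difference of the first block minus the second in mean log2(CPM + 0.5), in bins of 0.1, with libraries scaled by their own totals (red) or by TMM factors (grey); dashed lines mark the medians, 0.32 and -0.01. Both curves have the same shape, and the scaling moves the whole curve.

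The shift of the median gene was not spread evenly over abundance. Genes were divided into 5 equal classes by their mean level in the 9-week libraries, which do not enter the difference between the blocks. From the lowest to the highest class, the median difference of the first minus the second block was 0.32, 0.43, 0.44, 0.34 and 0.06. Parted genes that were higher in the first block made up 5.73%, 14.3%, 15.6%, 11.9% and 5.85% of these classes, and those that were lower 0.12%, 0.571%, 1.23%, 2.01% and 3.96%. On own totals and by this rule, the higher genes were thus densest in the middle classes and the lower genes in the class of the most abundant genes. The lowest class reached down to 0.0147 CPM, where the constant added to CPM before taking logs shrinks differences. Over all classes, 2347 genes were higher with a constant of 0.1 CPM and 945 with 2 CPM. How far this lowered the share of parted genes in the lowest class was not tested.

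Summed over a class, shares of a library's own total gave the following. The middle class held between 1.97% and 2.396% of counts in the first block and between 1.28% and 1.56% in the second. It held between 1.37% and 1.72% in exercised and between 1.35% and 1.72% in unexercised young fish. The class next to the lowest held between 0.846% and 1.03% in the first block and between 0.504% and 0.600% in the second, and the class next to the highest held between 4.46% and 5.23% against between 3.17% and 3.86%. In the lowest class the shares were between 0.270% and 0.380% in the first block and between 0.148% and 0.192% in the second. The blocks did not overlap in any of these 4 classes. The second block overlapped the young libraries in each of them, and the first block overlapped them in the lowest class, where exercised young fish reached 0.283%, and in the class next to the highest, where unexercised ones reached 4.52%.

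On own totals the summed shares of the most abundant genes overlapped. The highest class without the 50 most abundant genes of the series held between 30.8% and 34.2% of counts in the first block and between 31.9% and 38.3% in the second. Those 50 genes held between 56.7% and 61.6% in the first block and between 55.5% and 63.0% in the second. Single genes of the highest class did part the blocks, 5.85% of its genes being higher and 3.96% lower in the first block.

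TMM factors, a scaling applied to these shares after seeing the data, changed which classes parted. The class next to the highest then overlapped, with between 3.86% and 4.31% in the first block and between 3.92% and 4.08% in the second. The highest class without the 50 most abundant genes no longer overlapped, with between 26.3% and 29.2% in the first block and between 37.5% and 41.02% in the second. The middle class stayed apart, with between 1.76% and 1.93% in the first block and between 1.58% and 1.65% in the second, as did both classes below it. The ratio of the first to the second block was largest in the lowest class, at 1.78 on own totals and 1.32 with TMM. It was smallest in the highest class, at 0.957 on own totals and 0.71 with TMM. TMM applies the same factor to all classes of a library, so the order of the classes was bound to be nearly alike under both scalings.

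**Figure D4:**
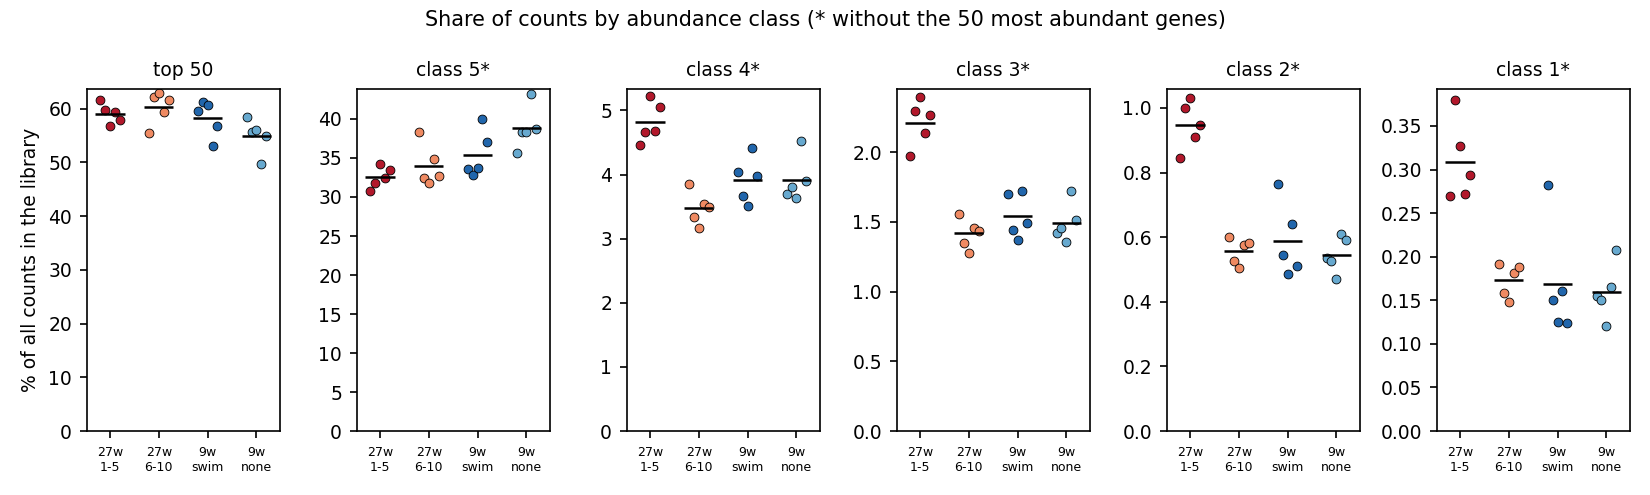
Percentage of each library's counts held by the 50 most abundant genes and by 5 abundance classes of genes without them, from class 5 (highest) to class 1 (lowest); points are libraries, bars are means, and each panel has its own axis from 0. Shares are of own totals. In classes 1 to 4 the first block lies above the second without overlap on this scale, for example at 1.97% or more against 1.56% or less in class 3.

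The parted genes held small shares of all counts. The 1778 higher genes held 3.60%, 3.58%, 3.96%, 3.63% and 3.84% of counts in libraries 1 to 5 and 1.32%, 1.46%, 1.19%, 1.34% and 1.38% in libraries 6 to 10. In young fish the same genes held between 1.38% and 1.91% with swimming and between 1.37% and 1.804% without. For this set the second block overlapped young fish at their low end. The 263 lower genes held 0.501%, 0.561%, 0.586%, 0.720% and 0.601% in libraries 1 to 5 and 2.14%, 1.57%, 1.58%, 1.77% and 1.78% in libraries 6 to 10. They held between 1.66% and 2.51% in exercised and between 2.27% and 3.14% in unexercised young fish, so the second block overlapped the exercised but not the unexercised ones.

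Most parted genes had the second block overlapping the young libraries and the first block outside them. Parted genes were chosen for a gap between the blocks, which the shares over all tested genes given beside them do not require. Of the 1778 higher genes, 1255 (70.6%) had all 5 values of the first block above the exercised young libraries while the second block overlapped these, against 19.3% of all tested genes. Another 151 (8.49%) lay above the young libraries in the first block and below them in the second, against 1.35% of all tested genes. In 31 (1.74%) both blocks lay above them, against 1.93%. In 91 genes (5.12%) the first block overlapped the young libraries and the second lay below them, against 5.09%. In 249 (14.0%) both blocks overlapped them, against 58.6%. The 1 gene left lay below them in both blocks, against 5.53%. With TMM factors the leading share was 79.3% of 668 genes, and that over all tested genes was not computed.

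Of the 263 lower genes, 165 (62.7%) lay below the exercised young libraries in the first block while the second block overlapped them. The share over all tested genes was 7.16%. Another 37 (14.1%) lay below them in both blocks, against 5.53%. In 28 (10.6%) the first block overlapped the young libraries and the second lay above them, against 1.04%. In 28 (10.6%) both overlapped, against 58.6%. In 5 (1.9%) the first block lay below them and the second above, against 0.036%. With TMM factors the leading share was 64.1% of 710 genes. Without library 6, the second block's nearest to the young fish, the leading shares on own totals were 66.5% of the higher and 49.1% of the lower genes. Shares over all tested genes were not computed with TMM factors or without library 6.

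Compared by means, the second block was nearer to the exercised young fish in 90.6% of the higher and 85.6% of the lower genes, against 67.2% of all tested genes. Over the higher genes, the median difference from the exercised young fish was 1.15 in the first block and -0.16 in the second, on the log2 scale. Over the lower genes it was -1.70 in the first block and -0.17 in the second. Over all tested genes it was 0.22 in the first block and -0.14 in the second. The young libraries had a part in the choice of the blocks, since the component that parted them was taken over all 20 libraries, and these shares are a description for that reason too.

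Some parted genes were close to silent in 1 block. Their share was below that of all tested genes for the higher genes and near it for the lower genes. All values of the second block were under 1 CPM in 8.04% of the higher genes, against 16.7% of all tested genes. In 77 of these higher genes, or 53.8%, all 10 young libraries were under 1 CPM as well, against 56.2% over all tested genes so low in the second block. All values of the first block were under 1 CPM in 30 of the lower genes, or 11.4%, against 10.5% of all tested genes. Of these 30 genes, 21 (70.0%) were at 1 CPM or more in every young library, and 1 was under 1 CPM in every young library. Over all tested genes so low in the first block, the shares were 2.34% and 59.7%. The 30 genes were chosen as at least 2-fold higher in the second block, a condition that the comparison genes did not have to meet. In none of the parted genes were all 5 libraries of the lower block at 0 counts. The lower genes lay mostly in the higher abundance classes of young fish and the higher genes in the middle ones, and the part of this in these shares was not tested.

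Among young libraries the higher genes varied about as much as others, and the lower genes somewhat more. The median SD of the higher genes in log2(CPM + 0.5) was 0.29 between exercised and 0.25 between unexercised young libraries, against 0.28 and 0.25 over all tested genes. For the lower genes it was 0.33 between exercised and 0.31 between unexercised young libraries. Recovered gene lengths had a median of 2960 bases for the higher, 3095 for the lower and 2727 for all tested genes that had a length. Genes with consecutive identifier numbers parted together about as often as any: the next identifier, where tested, was also higher in 10.9% of cases for the higher genes and also lower in 1.61% for the lower genes, against 10.7% and 1.58% of all genes.

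Single libraries set the edge of a block unevenly. Among the higher genes, the lowest value of the first block belonged to library 1 in 36.6% and to library 4 in 21.3%, and the highest value of the second block to library 7 in 35.3% and to library 8 in 4.33%. Among the lower genes the highest value of the first block was that of library 3, 4 or 5 in 27.0%, 26.2% and 25.5%, and the lowest of the second block was that of library 7 in 39.9%. On own totals, more genes stayed higher than lower whichever library was left out. Leaving out each of the 10 in turn gave between 1666 and 1959 higher and between 222 and 305 lower genes. With TMM factors, where 668 genes were higher and 710 lower, no library was left out.

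Among the 1342 higher genes with at least 5 CPM in the first block, Nfu_g_1_015864 (4288 bases) had the largest log2 difference. It had 74.9, 64.2, 97.0, 77.8 and 69.0 CPM in libraries 1 to 5 and 8.24, 6.08, 2.16, 12.04 and 10.01 CPM in libraries 6 to 10. In young fish it had 32.9, 40.6, 40.3, 47.1 and 65.3 CPM with swimming and 44.0, 43.1, 42.6, 74.1 and 115.0 CPM without. Here the second block stood apart from the young libraries, all of them at 32.9 CPM or more, while the first block overlapped them. The difference of the first from the second block was 3.39 on the log2 scale, and 2.98 with TMM factors. For this gene the second block was farther from the exercised young fish, by -2.62, than the first block, by 0.78.

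Nfu_g_1_012354 (7493 bases) had the largest difference in mean CPM among the higher genes. It had 788.7, 853.8, 1335, 917.8 and 1134 CPM in libraries 1 to 5 and 134.1, 377.5, 223.9, 230.7 and 201.9 CPM in libraries 6 to 10. Young fish had 143.6, 91.5, 97.7, 111.7 and 70.3 CPM with swimming and 63.4, 131.8, 123.2, 104.9 and 78.4 CPM without. Both blocks had higher means than the young groups, and all of the second block except library 6 lay above every young library. The difference between the blocks was 2.16 (1.72 with TMM factors), and each block exceeded the exercised young fish, by 3.29 in the first block and by 1.14 in the second.

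Among the 206 lower genes with at least 5 CPM in the second block, Nfu_g_1_003740 (5993 bases) had the largest log2 difference. It had 0.928, 1.36, 1.17, 1.84 and 1.29 CPM in libraries 1 to 5, from between 30 and 63 counts each, and 45.3, 40.4, 36.0, 52.6 and 27.98 CPM in libraries 6 to 10. Young fish had 9.47, 14.9, 6.76, 20.93 and 12.5 CPM with swimming and 21.7, 32.0, 27.2, 23.3 and 17.5 CPM without. The blocks lay on opposite sides of the exercised young libraries, with no overlap on either side. The difference between the blocks was -4.48 (-4.84 with TMM factors), the mean of the first block being 0.0325 of that of the second.

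Nfu_g_1_016181 (2899 bases) had the largest difference in mean CPM among the lower genes. It had 896.3, 967.0, 896.7, 1043 and 819.1 CPM in libraries 1 to 5 and 2638, 2108, 1543, 1877 and 1987 CPM in libraries 6 to 10. Young fish had 3710, 3277, 3516, 4760 and 4064 CPM with swimming and 3331, 3078, 3561, 4550 and 3091 CPM without. All values of the first block lay below all values of the second, and these below all values of young fish. The difference between the blocks was -1.12 (-1.55 with TMM factors), and against exercised young fish it was -2.06 in the first block and -0.94 in the second.

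**Figure D5:**
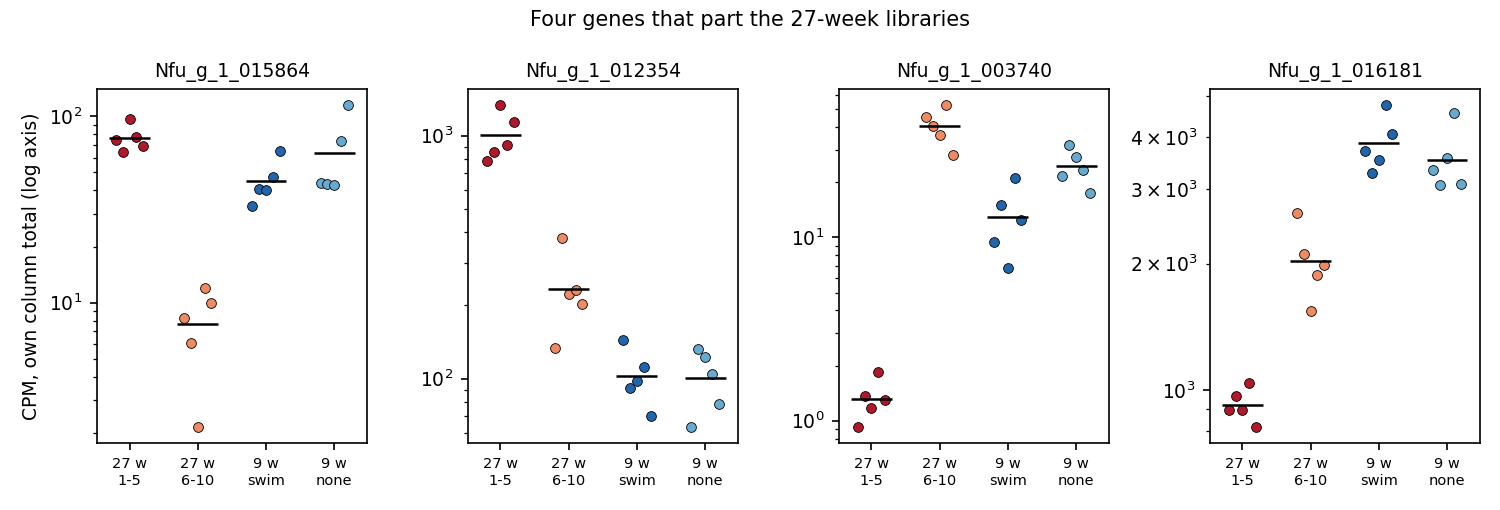
CPM of the 4 named genes in each library on a log axis, for libraries 1 to 5 and 6 to 10 of the 27-week fish and for young fish with and without swimming; points are libraries and bars are means of 5. In Nfu_g_1_015864 the second block lies alone at 12.04 CPM or less, in Nfu_g_1_003740 the first block lies alone at 1.84 CPM or less, and in the other panels the mean of the second block lies between those of the first block and the young fish.

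The difference between the young groups shares no library with that between the blocks. The young libraries did enter the component from which the blocks were chosen, at mean scores of -28.4 with swimming and -39.5 without. How parted genes differ with swimming is therefore not independent of the choice of blocks. The difference between the young groups was tested on the 9-week libraries alone, swim-tunnel over none (edgeR's quasi-likelihood fit, with a threshold of 0.05 on the Benjamini-Hochberg adjusted p), where 58 of 16653 genes were higher (0.348%) and 55 lower (0.33%). Of the 1778 genes higher in the first block, 24 were higher with swimming (1.35%) and 2 lower (0.112%). Of the 263 genes lower in the first block, 2 were higher with swimming (0.76%) and 4 lower (1.52%). The 4 named genes did not pass this test, with log2 fold changes of -0.46 (SE 0.28, edgeR adjusted p = 0.416) for Nfu_g_1_015864, 0.04 (SE 0.23, adjusted p = 0.947) for Nfu_g_1_012354, -0.92 (SE 0.26, adjusted p = 0.111) for Nfu_g_1_003740 and 0.15 (SE 0.11, adjusted p = 0.488) for Nfu_g_1_016181.

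These counts were small and rested on which libraries entered. Leaving out each young library in turn, between 3 and 66 of the higher genes were higher with swimming and between 1 and 21 of the lower genes were lower; the total over all genes was lowest at 6, without swim-tunnel library 2 or unexercised library 2 or 3, and highest at 506, without swim-tunnel library 4. Fitted together with the 27-week libraries, whose spread holds the difference between the blocks, 0 genes of either list were called by edgeR. Over all tested genes this fit called 18 higher (0.108%) and 12 lower (0.0721%). An unadjusted p under 0.05 was met by 163 of 1778 higher and 17 of 263 lower genes, against 2269 of 16653 tested genes. With DESeq2 on the young libraries, which called 3.36% of all genes higher and 2.88% lower, 152 of the higher genes were higher and 17 lower, and 13 of the lower genes were higher and 42 lower. At an unadjusted p under 0.05, in either direction, the edgeR fit of the young libraries had 439 of 1778 higher and 97 of 263 lower genes. Over all tested genes it had 3113 of 16653.

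The direction of small differences was alike in most parted genes, though not in all. The median log2 fold change with swimming was 0.17 over the genes higher in the first block and -0.18 over those lower in it, against 0.03 over all tested genes; leaving out each young library gave medians between 0.11 and 0.21 and between -0.25 and -0.16. The exercised young fish had the higher mean in 65.6% of the higher and 31.2% of the lower genes, against 48.6% of all genes, on own totals, and in 68.9% of 668 and 32.7% of 710 genes, against 51.6%, with TMM factors. Across 16653 genes, which share libraries and depth and are not independent replicates, the difference between the blocks and that between the young groups had a Pearson correlation of 0.22 and a Spearman correlation of 0.22 with TMM factors. Since the young libraries entered the choice of the blocks, these values are a description.

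The comparison of age that the labels give, 27 against 9 weeks in swim-tunnel fish, takes both blocks as 1 group. In the fit of all 3 groups 2471 of 16653 genes were higher at 27 weeks (14.8%) and 2805 lower (16.8%) (edgeR, same threshold). Of the genes called higher, 767 (31.0%) were at least 2-fold higher in the first block only, 135 (5.46%) in the second block only and 219 (8.86%) in both, on TMM-scaled means; the largest number, 1350 (54.6%), was 2-fold higher in neither. Of the genes called lower, 981 (35.0%) were at least 2-fold lower in the first block only, 53 (1.89%) in the second only and 202 (7.2%) in both, and 1569 (55.9%) in neither. The same split over all tested genes was not computed. By the parting rule with TMM factors, the first block differed from exercised young fish in 14.7% of all tested genes and the second in 2.91%. That rule also requires that values do not overlap, which the split does not. Whether the split is particular to the age calls was therefore not tested. The blocks lay on opposite sides of the young fish in 45 of the higher and 2 of the lower calls. This count, too, was not computed over all tested genes.

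Of the 1778 genes higher in the first block, 718 (40.4%) were called higher and 21 (1.18%) lower with age, and of the 263 lower genes 85 (32.3%) were called lower and 8 (3.04%) higher. These shares come from the same 27-week libraries that parted the blocks. Without libraries 1 to 5, 7.03% of the higher genes were called higher and 11.6% lower with age, and 21.3% of the lower genes were called higher and 22.4% lower, with medians of -0.01 over both lists; over all tested genes 10% were called higher and 12% lower. Without libraries 6 to 10, 1529 of the higher genes were called higher and 236 of the lower genes lower, where 24.2% of all tested genes were called higher and 25.8% lower.

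Of the 4 named genes, the age comparison called the pair in which the means of both blocks lay on the same side of those of young fish. Nfu_g_1_012354 was higher at 27 weeks, by 2.44 log2 units (SE 0.43, edgeR adjusted p = 0.000342), and Nfu_g_1_016181 was lower, with -1.33 (SE 0.30, adjusted p = 0.00232). Nfu_g_1_015864, with -0.31 (SE 0.57, edgeR adjusted p = 0.709), and Nfu_g_1_003740, with 0.87 (SE 0.89, adjusted p = 0.48), did not pass. Without libraries 1 to 5, Nfu_g_1_015864 was called lower, with -2.39 (edgeR adjusted p = 0.000543), and Nfu_g_1_003740 higher, with 1.85 (adjusted p = 0.000246). Without libraries 6 to 10 the sign of Nfu_g_1_003740 turned to -3.51 (edgeR adjusted p = 1.48e-07) and that of Nfu_g_1_015864 to 0.51 (adjusted p = 0.105). The 4 genes were picked for their difference between the blocks in these same 27-week libraries. Their age fold changes and p-values, above all those with a block left out, are not independent of that choice and are a description.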

How the data were processed

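Per the labels' protocols, muscle RNA was made into TruSeq libraries. Tools named in the submitters' processing notes were featureCounts 1.4.6-p4, STAR 2.4.1d and bcl2fastq 1.8.4. Neither genome build nor annotation nor strand setting is given there, and reads of overlapping, antisense or near-identical genes may be mixed. For 26739 genes the authors deposited raw counts, as well as RPKM values. Of the deposited RPKM values of at least 1, 100% followed from the counts when library totals were run down the rows, and 5.69% with each column's own total, so that table served only to recover gene lengths (96.1% of tested genes).

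Groups came from the labels. Blocks came from the gap in expression values and were read in by sample code; the members, blocks and rules were chosen with earlier results of these data known. edgeR 4.0.16 (R 4.3.3) was used with filterByExpr (minimum count 10, 16653 genes), TMM, robust quasi-likelihood fits and two-sided Benjamini-Hochberg adjustment over all tested genes at 0.05; DESeq2 1.42.0 was an alternative. Standard errors are the absolute log2 fold change over the square root of F. Block values used CPM on own column totals and log2(CPM + 0.5). Tests were checked on simulated counts. Replicate libraries differed far beyond sampling noise (chi-square per degree of freedom of at least 29.6). Named genes were, per direction, those with the largest log2 and the largest CPM difference among parted genes that averaged 5 CPM or more in their higher block. The marker list planned for the muscle check had 0 genes that could be found by symbol.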

Additional observations from a re-analysis of the deposited data

How the results depend on the processing

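Of the parting counts, 1778 higher, 263 lower and 2041 in all, TMM gave 668 and 710, DESeq2 size factors 681 and 695, a pseudocount of 2 CPM 945, 167 and 1112, a fold of 1.5 gave 3913, 575 and 4488, and a fold of 4 gave 149, 44 and 193; the scalings moved the median of all genes, and the other settings moved the threshold itself. Own totals without the 50 most abundant genes, no low-count filter, a pseudocount of 0.1 CPM and thinning to the lowest total kept each count within 1.5 times, and leaving out a library gave 1955 to 2217 in all. The leading share of higher genes, 70.6%, was 80.8% against unexercised and 75.0% against all young libraries, 79.3% with TMM, 79.0% with size factors and 66.5% to 71.7% with a library left out; that of lower genes, 62.7%, was 49.1% to 64.9% with a library left out. Shares over all tested genes were not computed for these alternatives. The distance ratio of 1.49 was 2.29 by 1 minus Spearman's correlation and 1.44 to 1.54 with a library left out. The difference in library totals ran from -1450620 to 745090 with a library left out.

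For swimming at 9 weeks, 113 genes were called, and 30 with all groups fitted together, 42 with own column totals, 1039 with DESeq2 and 6 to 506 with a library left out; the log2 fold change of Nfu_g_1_012354 ran from -0.11 to 0.16 with a library left out and never passed. For age, 5276 genes were called, and 8332 without libraries 6 to 10; no other alternative moved this count by over 1.5 times. Without libraries 6 to 10 the age fold change became -3.51 for Nfu_g_1_003740 and 0.51 for Nfu_g_1_015864. Nfu_g_1_003740 passed the swimming test with DESeq2 (adjusted p = 0.0177) and without swim-tunnel library 4 (edgeR adjusted p = 0.0486). No paired analysis was run, since the labels give no pairing between libraries of different groups. Values near 1 CPM are limited by depth, as for Nfu_g_1_003740 with 30 to 63 counts in the first block.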
